A study of Mus musculus with 2 samples.

Results

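The genes described here are the 6 peroxiredoxins (Prdx1 to Prdx6), the superoxide dismutases Sod1 and Sod2, catalase (Cat), and the lipid peroxide reductase Gpx4. They were taken by symbol from the feature tables of a single-cell RNA-Seq study of mouse retina, as 10 of 32285 genes. The study asked how a mitochondrial mutation alters retinal cells, and the comparison made here is whether transcripts of these genes differed between cell types and between a WT retina library and a mutant one. Both libraries (1 of each genotype) came from whole retinas of male C57BL/6J mice aged 7 months. The mutant library, labelled ND6, came from mice with the G13997A change in the mtDNA-encoded gene ND6, a subunit of respiratory complex I. The methods state that this line was made by fusion with female embryonic stem cells and kept by mating mutant females to WT males, whereas the WT line was bred among siblings. The labels do not give the number of mice per library. With 1 library per genotype, no test was possible and differences between mice could not be measured. Each interval below is a 95% interval for counting error only.

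Reactive oxygen species arise at the respiratory chain as superoxide. Superoxide dismutases turn superoxide into hydrogen peroxide, Sod1 in the cytosol and Sod2 in the mitochondrial matrix. Hydrogen peroxide is then removed by catalase in peroxisomes and by peroxiredoxins, which use a reactive cysteine that thioredoxin regenerates. Prdx1 and Prdx2 are cytosolic, Prdx3 is mitochondrial, Prdx4 sits in the endoplasmic reticulum, Prdx5 is found in mitochondria, peroxisomes and cytosol, and Prdx6 is a cytosolic 1-cysteine enzyme that also acts on phospholipid peroxides. Gpx4, a selenoprotein, reduces lipid peroxides within membranes with glutathione. Photoreceptors combine a high oxygen use with membranes rich in polyunsaturated lipids, and the retinal pigment epithelium (RPE) takes up the outer segments that they shed.

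The genes lie on separate chromosomes, apart from Prdx3 and Prdx5, which are both on chromosome 19. In the GRCm38 annotation of GENCODE M21, Prdx1 spans chr4:116685544-116700822, Prdx2 chr8:84969587-84974834, Prdx3 chr19:60864051-60874556, Prdx4 chrX:155323918-155340754, and Prdx5 chr19:6906697-6910106. Prdx6 spans chr1:161240112-161251219, Sod1 chr16:90220754-90226329, Sod2 chr17:13006846-13040063, Cat chr2:103453849-103485160, and Gpx4 chr10:80047166-80056439. Prdx2, Prdx5 and Sod1 overlap genes on the other strand (Rnaseh2a and Junb, Trmt112, and Scaf4). The last 300 bases of the longest coding transcript had no near-identical copy in other genes for 7 of the 10. Sod1 had 2 pseudogene copies and Gpx4 had 1 copy, none of them counted in the files. For Sod2 a stretch of these bases was at least 90% identical to transcripts of 158 other annotated genes, so reads there could have been left uncounted or assigned elsewhere.

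Many antioxidant genes carry the antioxidant response element, the binding site of the transcription factor Nrf2. It was searched here as the letters TGANNNNGC, where N is any base. RefSeq start-site windows (GRCm38.p6) were listed for 9 of the genes, and the windows of 3 held these letters on either strand. Of all 32536 windows of 250 bases, 35.3% held them, so this share did not stand out. The GC box GGGCGG was present for 8 of the 9 genes and in 33% of all windows, with overlaps between the motifs allowed. The letters CCAAT occurred 4 times before Cat, and at least once in 33.8% of all windows. The 3 upstream sequences with the antioxidant element letters are shown because they place the matches relative to the gene starts. Capitals mark the matched letters, which read on the other strand in each, and the bases end before the annotated gene start. Prdx1 is at chr4:116685349-116685543 (plus strand), Prdx5 at chr19:6910107-6910356 (minus strand) and Sod1 at chr16:90220512-90220753 (plus strand). A match describes the letters only.
Prdx1: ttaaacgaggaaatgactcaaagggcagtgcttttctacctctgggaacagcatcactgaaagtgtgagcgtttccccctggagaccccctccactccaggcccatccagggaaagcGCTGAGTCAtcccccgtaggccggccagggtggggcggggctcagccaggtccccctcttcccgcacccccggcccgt
Prdx5: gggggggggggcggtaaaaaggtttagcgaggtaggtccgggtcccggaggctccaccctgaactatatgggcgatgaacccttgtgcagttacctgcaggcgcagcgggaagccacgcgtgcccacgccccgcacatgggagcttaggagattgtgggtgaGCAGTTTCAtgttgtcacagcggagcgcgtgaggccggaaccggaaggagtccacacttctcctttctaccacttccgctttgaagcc
Sod1: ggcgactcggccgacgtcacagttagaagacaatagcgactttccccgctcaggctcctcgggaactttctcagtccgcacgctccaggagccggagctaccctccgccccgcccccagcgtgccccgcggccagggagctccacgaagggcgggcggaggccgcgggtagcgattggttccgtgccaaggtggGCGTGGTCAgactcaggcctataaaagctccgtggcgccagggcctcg

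After filtering, 12529 WT and 18395 ND6 cells remained, with medians of 1878 and 1416 UMIs (unique molecular identifiers, each counting 1 captured transcript). A limit of 20% mtDNA-encoded UMIs had removed 45.9% of the WT barcodes and 17.3% of the ND6 barcodes that passed the limits on UMIs and genes. UMIs were summed per class and given as CPM, a gene's UMIs relative to all UMIs of that class and library. Clusters were named from marker genes, with the 10 genes and their partner genes left out of the clustering. Rod-like cells numbered 9652 WT and 13069 ND6, cone-like 491 and 714, bipolar-like 234 and 635, and amacrine-like 82 and 309. Müller-like cells (the main glia) numbered 36 and 93, macrophage- or microglia-like cells 260 and 151, and RPE-like cells 326 and 961. No cluster met the rule for ganglion or horizontal cells. The amacrine-like cluster also had the ganglion cell markers Rbpms, Slc17a6, Pou4f1, Sncg, Thy1, Nefl and Nefm raised, but not Pou4f2 or Pou4f3. Rod RNA was present in every class: the 12 rod markers summed to 82806 and 88029 CPM in rod-like cells, to between 18926 and 47809 CPM in the other classes, and to 57804 and 64289 CPM in free RNA (barcodes of 10 to 100 UMIs). Free RNA held 226145 WT and 389287 ND6 UMIs, and comparisons with it below use its value without its own counting error. Clusters with much rod RNA and with markers of another type were set apart (380 WT and 953 ND6 cells), and 1068 and 1510 cells stayed unnamed. Of the cell barcodes, 59 occurred in both libraries.

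The 10 genes differed widely in how they were distributed over cell types. Prdx6 and Cat were the most cell type-restricted, with an 18.6- to 35.8-fold range between their highest and lowest class, whereas Sod2 and Prdx3 varied by at most 2.31-fold. For 6 of the 10 genes the highest class was the same in both libraries, against 53.4% of 10217 genes with at least 500 UMIs. For 5 of them that class was RPE-like in both libraries, against 6.68% of genes. These ranks use CPM alone: for Sod1 in the ND6 and Sod2 in the WT library, the RPE-like interval overlapped that of the next class. The count of 6 became 5 when the RPE-like class was left out. In the clustering used here, nearly all of the cells of 1 RPE-like cluster were WT (97 WT and 4 ND6 cells). The values of RPE-like cells are given with and without this cluster below. The split depended on the clustering. Without the mtDNA limit, a cluster with the same leading genes held 99 WT and 4 ND6 cells. At a clustering resolution of 2 (1 as reported), the RPE-like cluster with Cox8b and Dct among its leading genes held 182 WT and 222 ND6 cells. With genes scaled over both libraries, RPE-like cells formed 1 cluster of 301 WT and 987 ND6 cells.

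Among the cytosolic peroxiredoxins, Prdx1 was highest in RPE-like cells, at 839.8 CPM (interval 798 to 883) in the WT and 601 CPM (565 to 639) in the ND6 library. Müller-like cells followed at 262 and 235 CPM and macrophage- or microglia-like cells at 237 and 196 CPM, and these neighbours had overlapping intervals. Neurons had the least Prdx1, from 102 CPM in ND6 cone-like cells to 142 CPM in ND6 bipolar-like cells, below the free-RNA level of 256 CPM in the WT and 193 CPM in the ND6 library. Prdx2 had a different order. In the WT library it was highest in amacrine-like cells at 550.1 CPM (498 to 606), then in RPE-like cells at 439.96 CPM and in bipolar-like and cone-like cells at 363 and 349 CPM. In the ND6 library RPE-like, cone-like, amacrine-like and bipolar-like cells lay between 338 and 379.7 CPM with overlapping intervals between neighbours.

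Prdx6 was highest in glia. Müller-like cells held 619.8 CPM (565 to 679) in the WT and 642 CPM (560 to 732) in the ND6 library, and RPE-like cells 426 and 371 CPM. Rod-like cells held 32.1 and 33.9 CPM, a 19.3-fold and 18.9-fold difference from Müller-like cells. In all classes other than these glia and RPE-like cells, Prdx6 was below the free-RNA level of 146 and 179.8 CPM. Thinned to 400 UMIs per cell, 19.4% of WT Müller-like cells (exact interval 8.19 to 36.0%) and 14% of ND6 Müller-like cells had a Prdx6 UMI, compared with 1.51% and 1.60% of rod-like cells. Without thinning the Müller-like shares were 97.2% and 43.0%, at median depths of 10130 and 1645 UMIs, and the rod-like shares 9.96% and 7.74%.

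Cat was highest in RPE-like cells, with 212 CPM (191 to 235) in the WT and 108 CPM (92.8 to 124) in the ND6 library. The next class held 29.5 CPM in the WT (Müller-like) and 25.6 CPM in the ND6 library (macrophage- or microglia-like), and rod-like cells held 6.47 and 5.796 CPM. After thinning, 9.51% of WT and 5.41% of ND6 RPE-like cells had a Cat UMI (42.9% and 14.3% without thinning), compared with 0.29% and 0.23% of rod-like cells. Gpx4 was also highest in RPE-like cells, at 4872 CPM (4770.3 to 4975) and 5212 CPM (5104 to 5321), and was the only 1 of the 10 genes with rod-like cells in second place in both libraries, at 1848 and 2148 CPM. Cone-like cells followed at 1418 and 1642 CPM, and amacrine-like cells were lowest at 937 and 1023 CPM. These non-rod neurons lay below the free-RNA level of Gpx4 (1694 and 1909 CPM), while rod-like and RPE-like cells lay above it.

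Of the mitochondrial members, Sod2 ranged from 121 CPM in macrophage- or microglia-like cells to 259 CPM in RPE-like cells of the WT library, and from 155 CPM in Müller-like to 246 CPM in RPE-like cells of the ND6 library. In the WT library the RPE-like interval of Sod2 (236 to 284 CPM) overlapped that of amacrine-like cells (198 to 268 CPM). Rod-like cells, with 182 and 215 CPM, were above the free-RNA value of Sod2 (155 and 203 CPM) in both libraries, when its own counting error is left out. Prdx3 lay between 39.1 CPM (bipolar-like) and 90.6 CPM (amacrine-like) in the WT and between 44.1 CPM (rod-like) and 71.1 CPM (macrophage- or microglia-like) in the ND6 library, where all neighbouring intervals overlapped. Prdx5 was highest in WT amacrine-like cells (405 CPM) with RPE-like cells next (368 CPM), and in ND6 RPE-like cells (358 CPM) with amacrine-like cells next (284 CPM). Sod1 was highest in RPE-like cells, at 241 CPM in the WT and 165 CPM in the ND6 library, and lowest in cone-like cells of the WT (85.7 CPM). In the ND6 library all neighbouring intervals of Sod1 overlapped, and the RPE-like level lay below free RNA (216 CPM). Prdx4, of the endoplasmic reticulum, had overlapping intervals between all neighbours in both orders, and its highest values were 38.9 CPM in WT Müller-like cells (29 UMIs) and 45.5 CPM in ND6 macrophage- or microglia-like cells (16 UMIs). When the RPE-like cluster of nearly only WT cells was left out, the WT level of RPE-like cells became 162 CPM for Sod1 and 199.7 CPM for Sod2, at or below WT amacrine-like cells (162 and 231 CPM), and 4 of the 10 genes had the same highest class in both libraries.

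**Figure D1:**
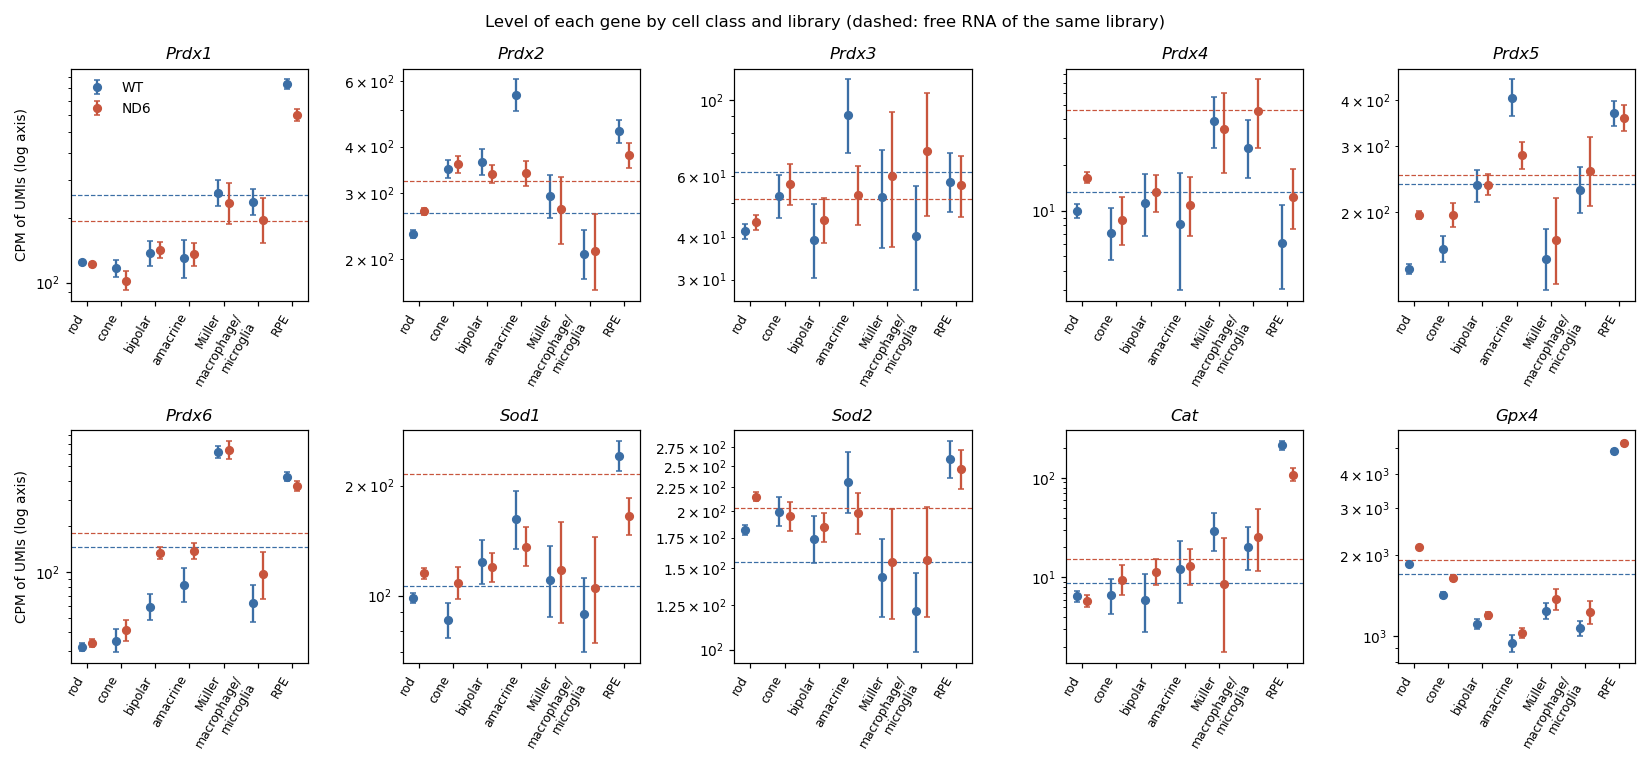
Level of each gene (CPM of UMIs, log axis) in 7 cell classes of the WT (blue) and ND6 (red) library, 1 point per class and library with its 95% counting interval. Dashed lines give the free RNA of the same library, and the RPE-like points stand highest in both libraries for Prdx1, Sod1, Sod2, Cat and Gpx4.

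The patterns over the 14 points of class and library were compared with those of 10217 genes by Pearson correlation of log2(CPM + 1), as a description only, since classes share a library and rod RNA. The genes most like Prdx6 were Ndrg2, Dbi and Gstm1 (r of 0.97 each). Nearest to Sod2 were Atp5f1, Cox7a2 and Ndufab1 (0.96, 0.95 and 0.93), and nearest to Prdx2 were Slc25a4, Atp5g3 and Mrps12 (0.93, 0.93 and 0.92). Prdx4 was nearest to Pros1 (0.91), Prdx5 to Atp6v1f (0.93) and Sod1 to Calm3 (0.92). Cat was nearest to Cyb5a, Ezr and Trf (0.94 each), Gpx4 to Eci1, Serhl and H2afj (0.97, 0.94 and 0.94), and Prdx1 to Smim1, Ech1 and Rnf13 (0.96 each). The lowest correlation within the group was between Prdx4 and Sod2 (−0.76).

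Over all cells, 8 of the 10 genes were higher in the ND6 library, against 56.7% of 15888 genes with at least 20 UMIs. The median log2 ratio (ND6 over WT) of the 10 was 0.14, and that of all genes 0.07. Prdx4 had the largest ratio: 9.79 CPM in the WT (534 UMIs) and 14.9 CPM in the ND6 library (941 UMIs), a log2 ratio of 0.61 (0.46 to 0.77). It was the only 1 of the 10 past an absolute log2 ratio of 0.5 with an interval that left out 0, which 25.5% of all genes were. In free RNA, Prdx4 moved from 13.3 CPM (3 UMIs) to 46.2 CPM (18 UMIs).

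Prdx5 followed, at 154 CPM and 196 CPM (log2 0.35, interval 0.31 to 0.39). Sod1 (104 and 117 CPM), Sod2 (183 and 203 CPM), Prdx6 (60.7 and 67.4 CPM), Gpx4 (1793 and 1954 CPM) and Prdx2 (254 and 273 CPM) had log2 ratios between 0.10 and 0.17, each with an interval above 0. The ratio of Prdx3, 0.06, had an interval that held 0 (−0.02 to 0.14). Prdx1, at 150.4 CPM and 134 CPM (log2 −0.17, −0.21 to −0.12), and Cat, at 13.8 and 10.2 CPM (log2 −0.44, −0.59 to −0.28), were lower in the ND6 library. Both changed sign when every cell was weighted equally (0.05 and 0.18), a setting that also moved the median of all genes to 0.22. A sum over all cells mixes the share of each cell type with the level within it. RPE-like cells held 381 of 753 Cat UMIs in the WT and 185 of 642 in the ND6 library; they were 326 and 961 cells with 1795610 and 1717132 UMIs, and Cat within them stood at 212 and 108 CPM.

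**Figure D2:**
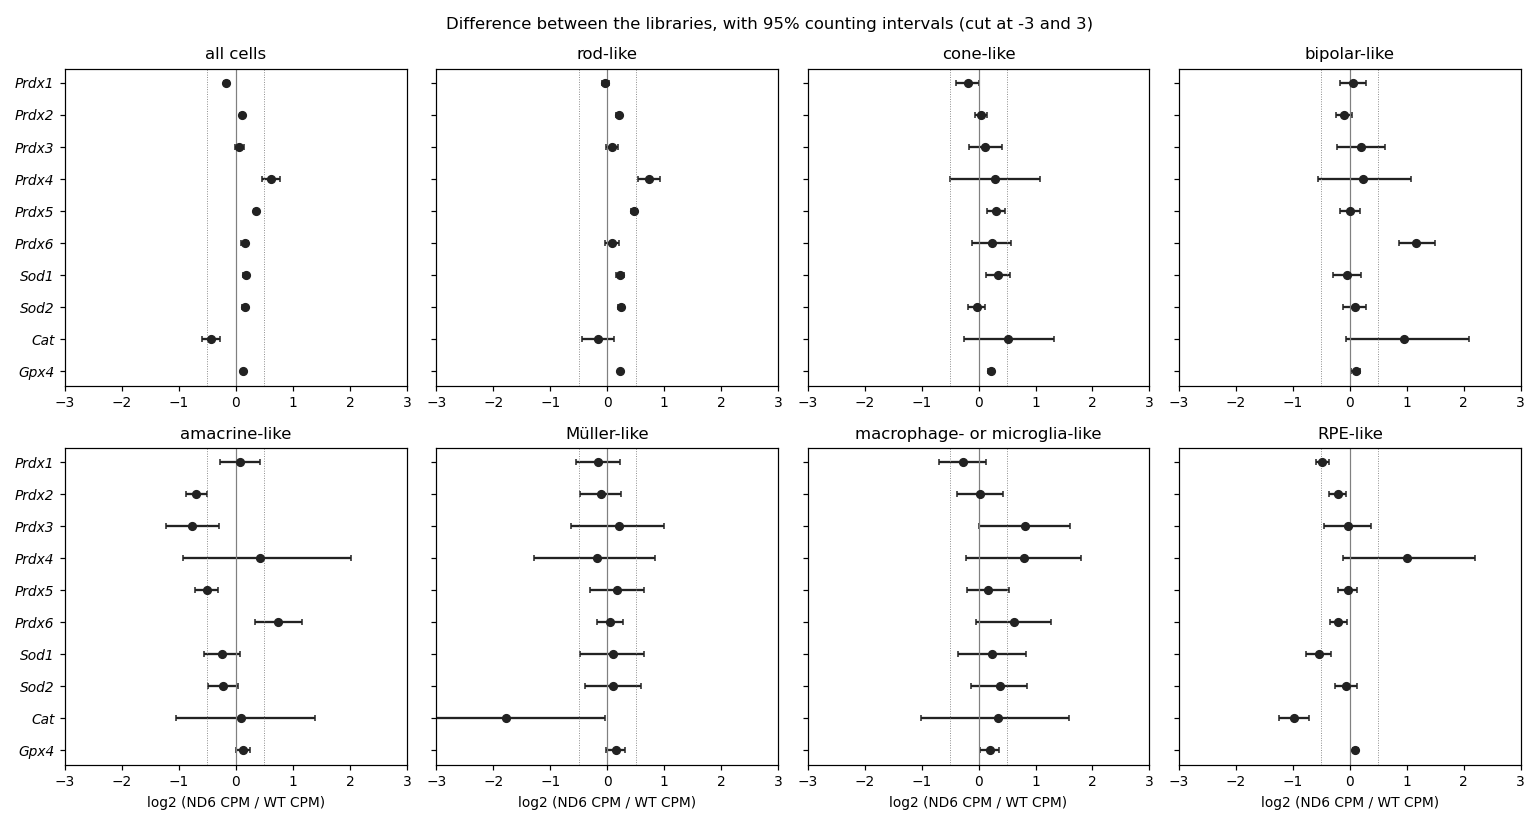
Log2 ratio of ND6 over WT CPM of each gene over all cells and in each class, with 95% counting intervals cut at −3 and 3 and dotted lines at −0.5 and 0.5. Of the 70 pairs of gene and class, 15 lie outside the dotted lines and 10 of these also have an interval that leaves out 0, among them Prdx6 in bipolar-like cells (1.17) and Cat in RPE-like cells (−0.98).

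In rod-like cells, which supplied most of the UMIs, 8 of the 10 genes were higher in the ND6 library (52.1% of 13362 genes), with a median of 0.21 against 0.02 for all genes. Prdx5 stood at 141 CPM in WT and 196 CPM in ND6 rods (log2 0.48, 0.42 to 0.53). Sod2 stood at 182 and 215 CPM (0.24, 0.19 to 0.29), and Sod1 at 98.5 and 115 CPM (0.22, 0.16 to 0.29). Gpx4 stood at 1848 and 2148 CPM (0.22, 0.20 to 0.23), and Prdx2 at 234 and 269 CPM (0.20, 0.16 to 0.25). Prdx4, at 9.93 and 16.5 CPM (0.73, 0.54 to 0.93), was past 0.5, as were 22.7% of genes. Intervals of Prdx1, Prdx3, Prdx6 and Cat held 0. Rod markers moved with these genes: 8 of 12 were higher in ND6 rods, and their sum went from 82806 to 88029 CPM, with none at 0. Of the 12 Müller markers 11 were higher in ND6 rods, with a sum of 681 and 887 CPM and none at 0. Whether this bears on the ratios was not tested.

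The 7 rod-like clusters differed in how far they shared these directions. Prdx5 (log2 0.11 to 0.46) and Sod2 (0.15 to 0.48) were higher in the ND6 library in 7 of 7, as were 18.8% of the 7785 genes with at least 20 UMIs in each cluster, so 2 of 9 genes is close to that share. Prdx1 was lower in 7 of 7 (−0.36 to −0.01), as were 9.06% of genes. Prdx4 (−0.08 to 1.09) and Sod1 (−0.06 to 0.38) were higher in 6 of 7. For Prdx2 and Gpx4, higher in 5 of 7 each, the median over clusters was 0.01 and 0.11, below their ratios of 0.20 and 0.22 in the summed rods. Cat did not reach 20 UMIs in every cluster.

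In cone-like cells 8 of the 10 were higher in the ND6 library (52.1% of 10666 genes). With an interval that left out 0, 0 were past 0.5 (12.9% of genes), and Cat was past it by size alone (0.52, −0.26 to 1.33). This depended on the clusters set apart. With these kept in their class, Prdx4 went from 0.28 to 0.90 and Prdx6 from 0.23 to −0.11, while Sod1 (0.30) and Gpx4 (0.25) stayed higher. Sod1 (85.7 and 108 CPM, log2 0.34, 0.12 to 0.55), Prdx5 (159.8 and 197 CPM, 0.30, 0.14 to 0.46) and Gpx4 (1418 and 1642 CPM, 0.21, 0.16 to 0.26) had intervals above 0, as they did in rods. Sod2 did not share the direction it had in rods, with 199 and 195 CPM (−0.03, −0.18 to 0.12); the difference between classes was not tested. In free RNA, Sod1 stood at 106 and 216 CPM, Sod2 at 155 and 203 CPM, Prdx5 at 239 and 252 CPM, and Gpx4 at 1694 and 1909 CPM. In ND6 cone-like cells 11 of 12 Müller markers (sum 841 and 1062 CPM, none at 0) and 10 of 11 RPE markers (sum 194 and 397 CPM, 1 at 0 in each library) were higher. The part of these in the ratios was not tested.

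In bipolar-like cells 8 of the 10 were higher (58.3% of 11490 genes), and 1 was past 0.5 (13% of genes). That gene was Prdx6, at 59.3 CPM in the WT (100 UMIs) and 133 CPM in the ND6 library (526 UMIs), a log2 ratio of 1.17 (0.86 to 1.49). It was higher in each of the 5 bipolar-like clusters, by 0.93 to 2.79. Müller markers moved with it: 11 of 12 were higher in ND6 bipolar-like cells, their sum went from 1456 to 2535.5 CPM with none at 0, and Glul, the glutamine synthetase of Müller glia, was higher in the same 5 clusters by 1.37 to 3.31. In free RNA 11 of the 12 Müller markers were higher as well, with a sum of 2215 and 3709 CPM. RPE markers, from the class with the second-highest Prdx6 level, were higher for 10 of 11 in ND6 bipolar-like cells (sum 255 and 644 CPM, 1 at 0 in each library). Thinned to 1000 UMIs, 4.89% of WT bipolar-like cells (2.47 to 8.58%) and 12.8% of ND6 cells (10.2 to 15.9%) had a Prdx6 UMI, compared with 3.74% and 3.96% of rod-like cells (25.6% and 42.2% of bipolar-like cells without thinning). At 400 UMIs the bipolar-like shares were 0 of 234 WT cells, with an exact upper limit of 1.56%, and 7.40% of ND6 cells. The part of Müller or RPE RNA in the Prdx6 ratio was not tested. Ratios of the other genes lay between −0.10 and 0.95, and of these only that of Gpx4 (0.11, 0.03 to 0.18) had an interval that left out 0.

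Amacrine-like cells, with 82 WT cells, had 5 of 10 genes higher in the ND6 library (54.1% of 10602 genes) and 4 past 0.5 (19.3% of genes). Prdx2 stood at 550.1 and 339 CPM (log2 −0.70, −0.88 to −0.51), Prdx3 at 90.6 and 53.0 CPM (−0.77, −1.23 to −0.31), and Prdx5 at 405 and 284 CPM (−0.51, −0.72 to −0.31). Prdx6 went the other way, at 82.5 and 138 CPM (0.74, 0.33 to 1.17). These cells differed in more than the 10 genes. All 12 rod markers were higher in ND6 amacrine-like cells (sum 18926 and 29390 CPM), 10 of 12 Müller markers were higher (sum 1859 and 2901 CPM, 1 of them at 0 in the WT), and the median depth was 7409 and 3879 UMIs. All 11 RPE markers were higher too (sum 265 and 656 CPM, 2 at 0 in the WT), and 7 ganglion cell markers were raised in the cluster. Clustering at resolution 2 gave an amacrine-like cluster of 69 WT and 146 ND6 cells and an unnamed one with raised amacrine markers, of 16 WT and 164 ND6 cells (median 8245 and 1523.5 UMIs). The same 7 ganglion cell markers were raised in the former. In the unnamed cluster Rbpms, Slc17a6, Pou4f1, Thy1, Nefl and Nefm were raised too, as were the horizontal cell markers Onecut1, Onecut2, Calb1 and Tfap2b. The part of these in the ratios was not tested. Srxn1, which restores overoxidized peroxiredoxins, stood at 90.6 and 52.0 CPM in these cells, above the 5.73 to 21.3 CPM of every other class.

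In Müller-like cells 6 of the 10 genes were higher (46% of 8025 genes), and 9 had intervals that held 0. Prdx6 stood at 619.8 and 642 CPM (log2 0.05, −0.19 to 0.28). With every cell weighted equally its ratio was −1.24. Thinned to 1000 UMIs, 58.3% of 36 WT cells (40.8 to 74.5%) and 20% of 60 ND6 cells (10.8 to 32.3%) had a Prdx6 UMI. The summed ratio and the shares of cells thus differed for Prdx6. Cat was past 0.5 in the lower direction (14.7% of genes were past it), from 22 UMIs (29.5 CPM) to 3 UMIs (8.6 CPM), a log2 ratio of −1.78 with an interval of −4.16 to −0.04. The median depth of these 36 and 93 cells was 10130 and 1645 UMIs. In macrophage- or microglia-like cells 9 of the 10 were higher (53.4% of 7113 genes), and Prdx3 was past 0.5 (14% of genes), on 34 and 25 UMIs (40.3 and 71.1 CPM, 0.82, 0.01 to 1.60). Gpx4 (1068 and 1222 CPM, 0.20, 0.03 to 0.36) was the other gene with an interval above 0, and Müller markers summed to 2481 and 5749 CPM there (11 of 12 higher, with 2 at 0 in the WT and 1 in the ND6 library).

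RPE-like cells were the class in which the genes stood lower in the ND6 library: 2 of the 10 were higher (49.9% of 9624 genes), and 2 were past 0.5 in the lower direction (13.1% of genes were past it). Cat stood at 212 and 108 CPM (log2 −0.98, −1.24 to −0.72), and Sod1 at 241 and 165 CPM (−0.55, −0.77 to −0.33). Prdx1 stood at 839.8 and 601 CPM (−0.48, −0.60 to −0.37). Rod markers were higher in ND6 RPE-like cells for 11 of 12 (sum 31162 and 42664 CPM), and the median depth was 2455 and 1112 UMIs. Over 10 settings, Prdx1 and Sod1 stayed lower in 9 and Cat in 10. The size of these ratios depended on whether the cluster of 97 WT and 4 ND6 cells, led by Cox8b and Dct, was kept. Leaving it out removes nearly only WT cells, so the ratios of genes high in it rise by construction. That cluster held 1212 CPM of Prdx1, 307 CPM of Cat and 613 CPM of Prdx6 in the WT library. Its 4 ND6 cells held 1383, 471 and 754 CPM of the same genes. WT cells had a median of 1673 UMIs in the other RPE-like cluster and 8352 UMIs in this one.

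Without that cluster, 229 WT and 957 ND6 cells remained, and 9 of the 10 genes were higher in the ND6 library (40% of 8994 genes), with a median of 0.35 against −0.16 for all genes. Gpx4 stood at 3377 and 5144 CPM (log2 0.61, 0.55 to 0.67), Prdx6 at 216 and 364 CPM (0.75, 0.51 to 1.00), and Prdx5 at 219 and 355 CPM (0.70, 0.46 to 0.94), all 3 past 0.5, as were 25.9% of genes. Prdx1 changed direction, to 423 and 586 CPM (0.47, 0.30 to 0.65). Sod1 (162 and 163 CPM, 0.012) and Cat (106 and 101 CPM, −0.08) had intervals that held 0.

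**Figure D3:**
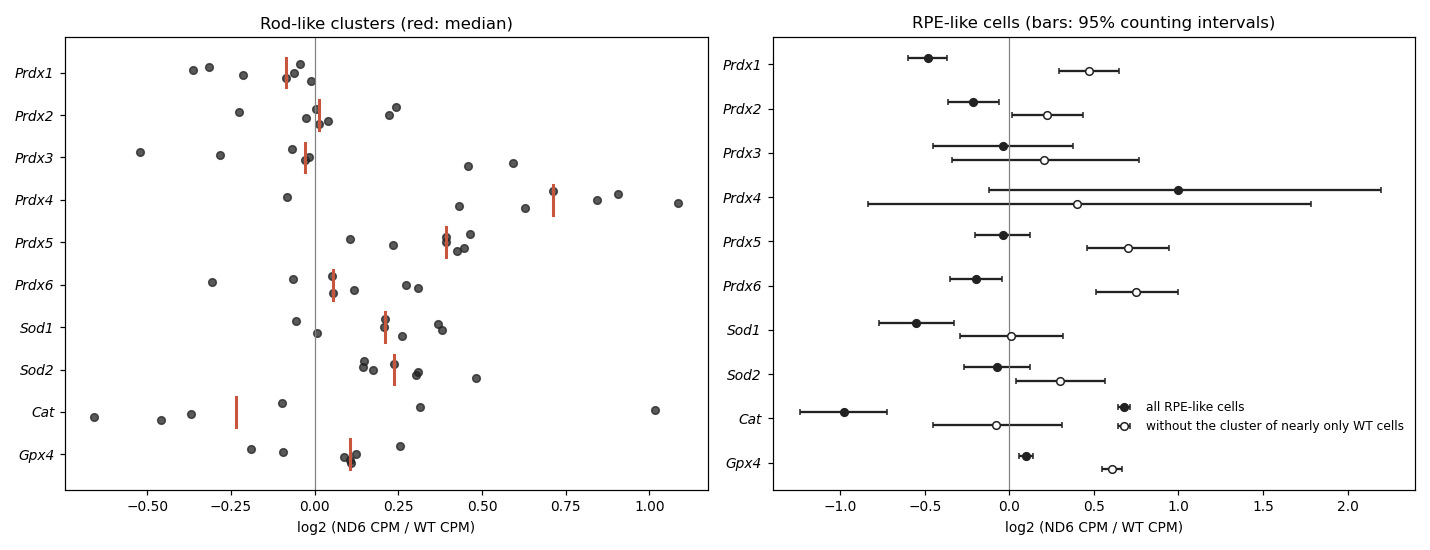
Left, log2 ratio of ND6 over WT CPM of each gene in each rod-like cluster with at least 20 UMIs (points; red bar, median). Right, the ratio in all RPE-like cells (filled) and without the cluster of nearly only WT cells (open), with 95% counting intervals; Prdx1 goes from −0.48 to 0.47.

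Rods varied among themselves with their content of Malat1, a nuclear long noncoding RNA. Rod-like cells of each library were divided into tertiles of the Malat1 share of their UMIs, and CPM was computed without Malat1. The limits of the highest tertile, 2.47% in the WT and 0.856% in the ND6 library, differ. In the highest tertile most of the 10 genes were lower than in the lowest (16 of 20 pairs of gene and library), while the median of all genes was higher (log2 1.02 in the WT and 0.66 in the ND6 library). Of 11511 genes in the WT library, 17.1% had a ratio below that of Prdx3 (−0.02). Of 12194 genes in the ND6 library, 14.8% lay below Sod2 (−0.24) and 29.0% below Prdx6 (0.17). Prdx2 stood at 368 CPM in the lowest and 187 CPM in the highest tertile of the WT (log2 −0.98, −1.06 to −0.90), and at 368 and 219 CPM in the ND6 library (−0.75, −0.82 to −0.68). Gpx4 stood at 2740.3 and 1525 CPM in the WT (−0.85) and at 2877 and 1759.8 CPM in the ND6 library (−0.71). Prdx5 (−0.75 and −0.65) and Prdx1 (−0.62 and −0.58) were lower to a similar extent in both libraries, and Sod1 (−0.25 in both) less so.

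Prdx3 and Sod2 had intervals that held 0 in the WT (−0.02 and −0.03) and lay below 0 in the ND6 library (−0.51 and −0.24), a difference that was not tested. Prdx6 (0.12 and 0.17) and Cat (0.32 and 0.55) had intervals that held 0 in both. Depth moved with the Malat1 share, from a median of 1503 to 3666 UMIs in the WT and from 1353 to 2388 UMIs in the ND6 library, and its part was not tested. Within each tertile, Prdx5 (0.35, 0.57 and 0.45 from the lowest to the highest), Sod2 (0.37, 0.30 and 0.15), Sod1 (0.21, 0.22 and 0.20), Prdx4 (0.62, 0.48 and 0.89) and Gpx4 (0.07, 0.29 and 0.21) were higher in the ND6 library with intervals above 0. The median of all genes was 0.21, −0.16 and −0.00 in the same order. In the lowest tertile the ratio of Sod1 was therefore close to that of the median gene, and the ratio of Gpx4 was below it.

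**Figure D4:**
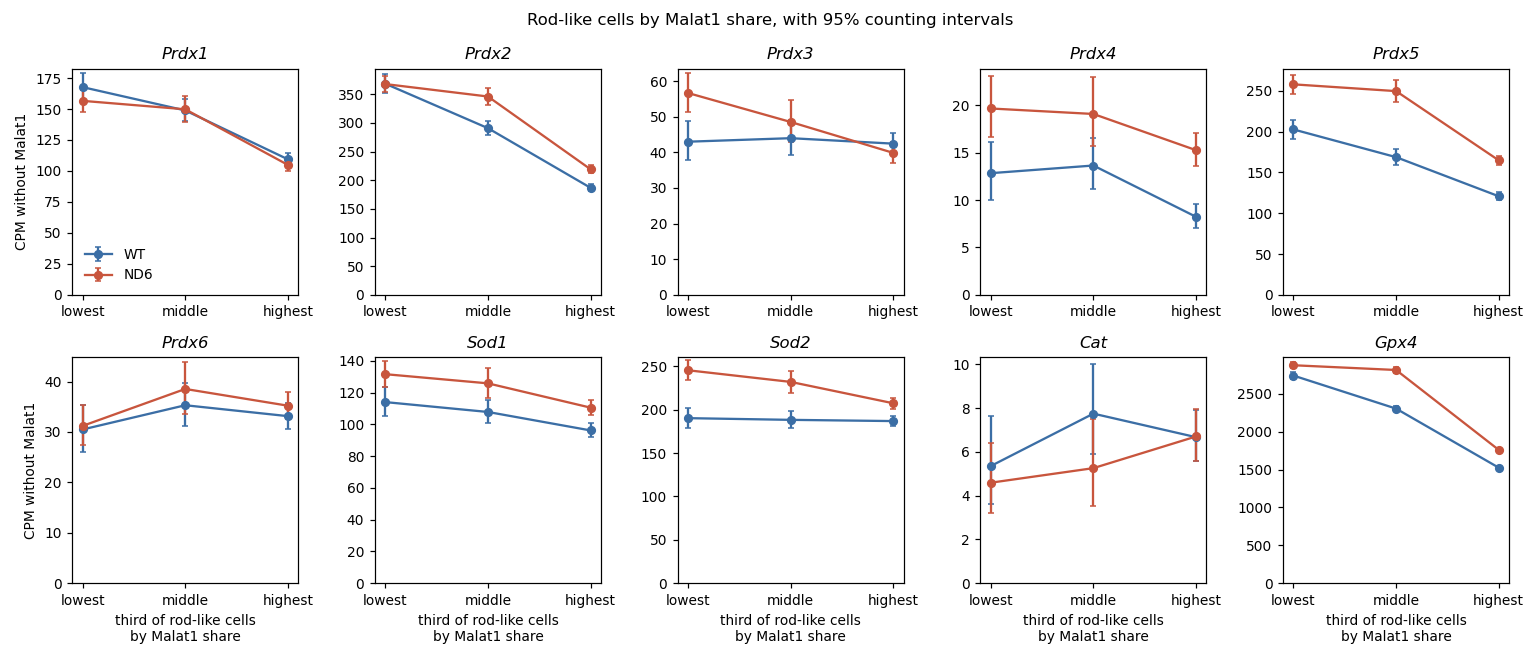
CPM of each gene (Malat1 left out of the totals) in rod-like cells of the lowest, middle and highest tertile of the Malat1 share, WT in blue and ND6 in red, with 95% counting intervals. Prdx2 and Gpx4 are lowest in the highest tertile in both libraries, and Prdx5 lies higher in the ND6 library in every tertile.

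The enzymes that supply and restore these proteins were described from a list of 40 partner genes, of which 39 had at least 20 UMIs over all cells (Gpx2 had 0 UMIs in both libraries). Of these, 21 were higher and 18 lower in the ND6 library, with a median of 0.02, and 5 were past 0.5 (25.5% of all genes). In the thioredoxin system, 4 of 6 were higher. Txn1, the cytosolic thioredoxin that reduces most peroxiredoxins, stood at 54.4 and 76.7 CPM (log2 0.50, 0.43 to 0.56), just inside the limit of 0.5, while its mitochondrial counterpart Txn2 stood at 123 and 122 CPM (−0.01). Srxn1, the sulfiredoxin, stood at 11.5 and 17.2 CPM (0.58, 0.44 to 0.73), and was higher in rod-like (10.2 and 16.2 CPM), cone-like (9.76 and 17.9 CPM) and bipolar-like cells (13.04 and 21.3 CPM). In RPE-like cells it stood at 10.6 and 15.7 CPM, in Müller-like cells at 10.7 and 5.73 CPM, in macrophage- or microglia-like cells at 20.2 and 14.2 CPM, and in amacrine-like cells at the values above. The 3 sestrins had ratios between −0.12 and −0.01.

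Glutathione synthesis and reduction varied little, with Gclc, Gclm, Gss and Gsr between −0.10 and 0.04, and the glutaredoxins lay between −0.10 and 0.20. Of the other glutathione peroxidases, Gpx1 stood at 42.5 and 44.8 CPM (0.08), and Gpx3, the secreted form, at 0.734 and 2.86 CPM (40 and 180 UMIs, 1.96, 1.46 to 2.49). Of the NADPH sources, Nnt, the mitochondrial transhydrogenase, stood at 1.58 and 3.65 CPM (86 and 230 UMIs, 1.21, 0.85 to 1.59), while G6pdx, Pgd, Idh2 and Me1 lay between −0.06 and 0.09. The WT and mutant lines were made and bred differently, and the part of strain background in the Nnt ratio was not tested. Among genes that act beside Gpx4, the ferritin heavy chain Fth1 stood at 1909 and 2494 CPM (0.39, 0.37 to 0.40) and the light chain Ftl1 at 371 and 369.6 CPM (−0.005). Gch1 stood lower, on 22 and 6 UMIs (−2.08), and 17 of its WT UMIs lay in macrophage- or microglia-like cells, in which the ND6 library had 0 (a level of up to 8.53 CPM by 3 counts). All 4 methionine sulfoxide reductases were lower in the ND6 library, from −0.05 for Msrb1 to −0.71 for Msrb3 (44 and 31 UMIs), and 2 of the 4 intervals, those of Msra and Msrb3, left out 0.

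By class, the partner genes were higher in the ND6 library for 23 of 36 in rod-like, 19 of 29 in cone-like and 22 of 30 in bipolar-like cells, against 52.1%, 52.1% and 58.3% of all genes. In amacrine-like cells, where Prdx2, Prdx3 and Prdx5 were lower, 11 of 27 were higher (54.1% of all genes) and the median was −0.27. In Müller-like, macrophage- or microglia-like and RPE-like cells 10 of 21, 10 of 24 and 13 of 30 were higher, against 46%, 53.4% and 49.9% of all genes.

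**Figure D5:**
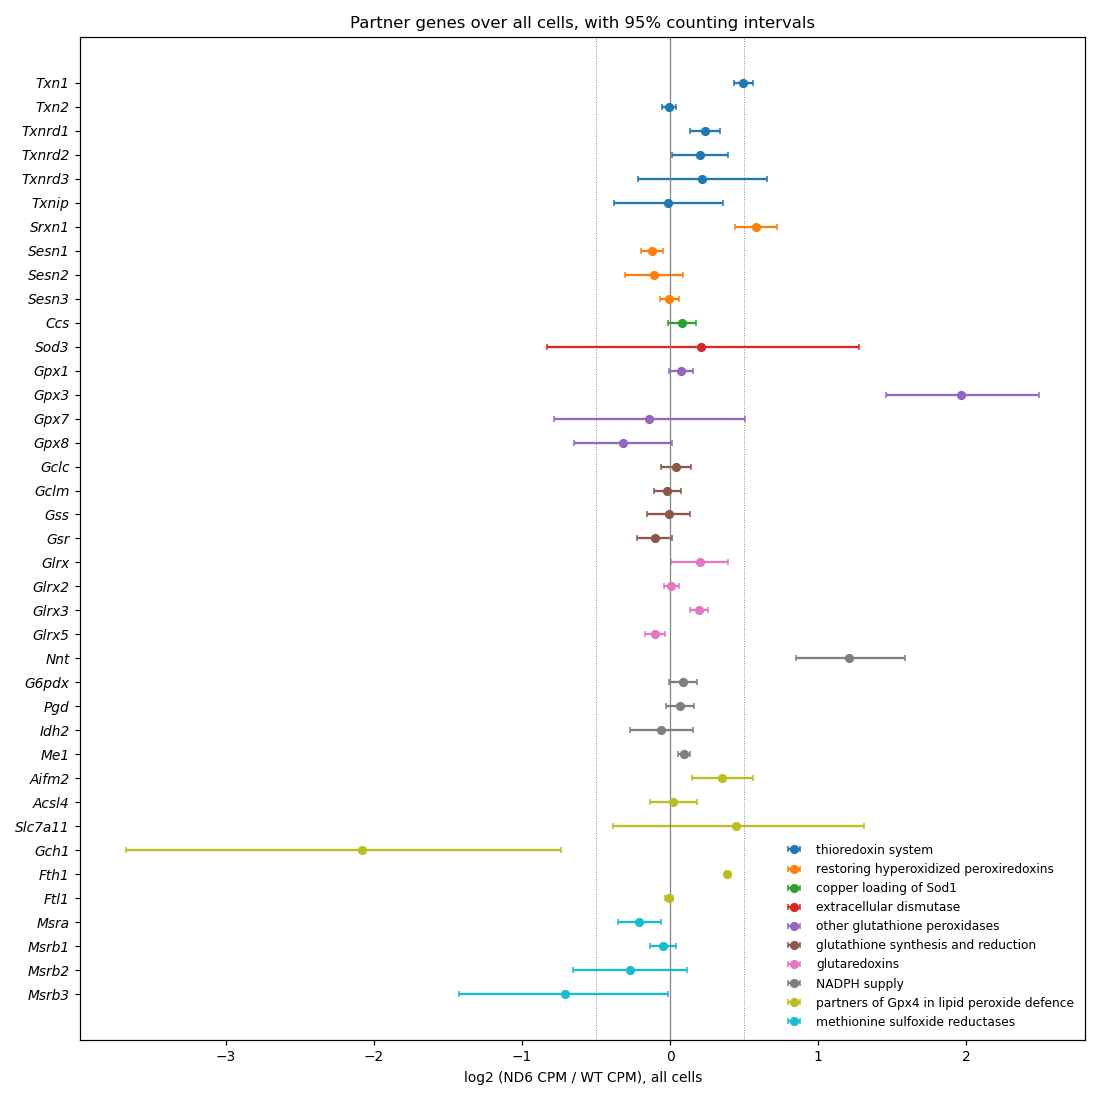
Log2 ratio of ND6 over WT CPM over all cells for the 39 partner genes with at least 20 UMIs, coloured by role, with 95% counting intervals and dotted lines at −0.5 and 0.5. Gpx3, Nnt and Srxn1 lie above 0.5, and Gch1 and Msrb3 below −0.5.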

How the data were processed

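Droplet-based 3′ libraries of whole retina, 1 WT and 1 ND6, were analysed. The authors aligned reads to mm10 with Cell Ranger 3.0.2 and deposited raw UMI counts per gene and barcode, unfiltered and without normalization. The annotation release is not given in the sources used here.

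The limits on cells were those of the methods: barcodes with fewer than 401 UMIs or 201 genes, or with over 20% mtDNA-encoded UMIs, were removed. The matrices hold 77958836 WT and 80358255 ND6 UMIs, of which 54524401 and 62949610 lay in cells. Counts were log-normalized, and 3000 variable genes (without the 10 genes, partner genes, Malat1 and mtDNA-encoded genes) were scaled within each library. Leiden clustering (scanpy 1.11.5, leidenalg 0.10.2) used 30 principal components, 20 neighbours and resolution 1. A cluster was named with at least 20 cells, at least 3 markers raised 2-fold or more, and at least 3 times as many own as other markers among its leading 10 genes. Unnamed clusters with at least 3 rod markers raised against the named non-photoreceptor classes were called rod-like. This rule was set after the clusters were seen and was changed once: the first form called a Nefl- and Glul-led cluster Müller-like and left 4 rod clusters unnamed. The rule by which clusters rich in rod RNA were set apart was also chosen after values were seen; the level it used is not reported here. Scrublet marked 0 cells in both libraries and was therefore not used, which leaves any doublets in the classes.

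The CPM of summed counts carry exact Poisson intervals, log2 ratios exact conditional binomial intervals and shares exact Clopper-Pearson intervals, all at 95%, computed with scipy 1.17.1 and tested on simulated data. Ratios needed 20 UMIs over both libraries, and a share of 0 was read against 3 counts. All 10 genes and the 40 partner genes were named by rule. Genes, lists and alternatives were chosen with earlier results of these data known. Near copies were searched with BLAST 2.17.0. Alternatives were another scaling and denominator, equal cell weights, other cell filters and other clusterings.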

Additional observations from a re-analysis of the deposited data

Results flagged for a closer look

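Prdx3 was past 0.5, with intervals that left out 0, in opposite directions in different classes. It was higher in ND6 macrophage- or microglia-like cells (log2 ratio 0.82, interval 0.01 to 1.60, on 34 and 25 UMIs). In ND6 amacrine-like cells it was lower (log2 ratio −0.77, interval −1.23 to −0.31, on 67 and 102 UMIs). Of all genes, 14% and 19.3% were past 0.5 in these classes. Markers of other cell types also differed between the libraries in both classes, as given above, and their part was not tested. The difference between the classes was not tested, since each genotype has 1 library. Under the alternatives run, its ratio lay between 0.77 and 1.09 in the former and between −0.92 and −0.66 in the latter class.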

How the results depend on the processing

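No paired analysis was possible because there is 1 library per genotype. With cells weighted equally, the median log2 ratio of all genes moved to 0.22, 1 of the 10 genes was higher in ND6 Müller-like and 6 in RPE-like cells (6 and 2 as reported), 22 pairs of gene and class were past 0.5 by size alone (15 by size alone with UMIs summed, of which 10 with intervals), and 32 partner genes were higher (21 as reported). Without the mtDNA limit, that median was 0.17, 4 genes were higher in RPE-like cells, and no cone-like class could be compared. With the highest 10% of doublet scores removed, 4 were higher in RPE-like cells. With genes scaled over both libraries, 2 were higher in Müller-like cells. Over all cells, 2 genes in place of 1 were past 0.5 under median-of-ratios scaling, with at least 1000 UMIs, and after removal of doublet scores. Alternatives chosen after seeing the data were keeping the clusters set apart, leaving out 1 RPE-like cluster, subtracting the rod profile, leaving out the RPE-like class and taking rod clusters singly. Leaving out the RPE-like cluster of nearly only WT cells took Sod1 in RPE-like cells to 0.012 (interval −0.29 to 0.32), turned Prdx1 (0.47), Prdx2 (0.23), Prdx5 (0.70), Prdx6 (0.75) and Sod2 (0.30) from lower to higher with intervals above 0, and raised the genes higher there to 9. The cause of these changes was not tested, other than that the last setting has fewer WT cells. In rod-like cells, Prdx5 stayed between 0.38 and 0.50, Sod1 between 0.19 and 0.24, Sod2 between 0.21 and 0.31 and Prdx4 between 0.69 and 0.76 under the alternatives run. Prdx2 lay between 0.06 and 0.23 and Gpx4 between 0.10 and 0.24 there, both lowest with cells weighted equally. Where a gene has few UMIs in a class, as Cat in Müller-like cells (22 and 3), counting error limits its ratio.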

Other observations

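Barcodes above the limit of 20% mtDNA-encoded UMIs (10647 WT and 3861 ND6) also held these transcripts. As a share of nuclear UMIs, Prdx6 stood at 159 CPM in these WT barcodes (interval 151 to 168) and 452 CPM in the ND6 barcodes (428 to 476), compared with 66.1 and 72.5 CPM in cells. Prdx1 stood at 240.04 and 287 CPM, compared with 164 and 144 CPM in cells. Gpx4 stood at 2772 CPM in the WT and 2065 CPM in the ND6 barcodes, compared with 1953 and 2101 CPM in cells.

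The unnamed cluster led by Nefl, Bc1 and Glul (1067 WT and 1508 ND6 cells) held Prdx6 at 117 CPM (106 to 129) in the WT and 176 CPM (165 to 188) in the ND6 library, between the levels of rod-like and Müller-like cells. The deep cluster with both rod and cone transcripts (148 WT and 428 ND6 cells) held Prdx5 at 95.5 and 141 CPM and Prdx6 at 29.1 and 25.0 CPM. The red blood cell-like cluster (232 and 525 cells) held Prdx5 at 191 and 236 CPM. Both of the latter clusters were set apart for their rod RNA.

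The files list 2 identifiers for Nnt, of which 1 held all of the 86 WT and 230 ND6 UMIs and the other held 0 in both libraries.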
